A study of Mus musculus with 167 samples.

Results

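The cytosolic ribosomal protein genes are the nuclear genes that encode the protein parts of the cell's main ribosome. They were taken here as all genes whose symbol is Rpl or Rps followed by a digit, or is Rplp0, Rplp1, Rplp2 or Rpsa, leaving out pseudogenes marked -ps and the Rps6k and Rps19bp genes. The table of 38924 genes held 91 of them, and 85 were measured, meaning that they reached a TPM (the authors' length-scaled share of a cell's transcripts) of 1 or more in at least 10% of the kept cells, beside 9268 genes measured in all. The rule used detection but no difference between groups. Of the 85 measured genes, 35 belong to the small subunit (37 by symbol) and 50 to the large subunit (54 by symbol).

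The cells were lymphoid-primed multipotent progenitors (LMPPs), early blood progenitors with lymphoid and granulocyte-monocyte potential, from the bone marrow of wild-type female C57BL/6J mice. They had been gated as lineage-negative, Sca-1 and c-Kit positive, CD150 negative, CD34 positive and high for Flt3, then captured singly on a microfluidic chip. The 2 groups were mice of 4 months, with 84 columns of cells, and of 14 months, also with 84 columns, of which 45 carry the number 4 and 39 the number 5 in their names (set 4 and set 5; no source used here says what the numbers mean). The labels list 84 cells of 4 months but 83 of 14 months, and the column names do not show which labelled cell a column is. The labels do not name animals. Each age is therefore 1 sample, no test was possible, and age cannot be told apart from capture. A cell was kept with 1000 or more genes at TPM 1 or more, which left 64 cells of 4 months, 29 of set 4 and 37 of set 5, with medians of 3974.5, 3230 and 3376 genes. TPM sums to the same total in every cell, so sequencing depth is unknown and a level is a share of the cell's transcripts, not an amount per cell. The median mitochondrial share of TPM was 12.4%, 20.5% and 15.8%, in the same order. Of the genes used in the sort, Flt3 was detected in 64 of 64, 25 of 29 and 36 of 37 cells, and Cd34 in 57, 27 and 31. Slamf1 (CD150), Cd3e and Ly6g were at 0 in all kept cells, as were the defining markers Gata1, Pax5 and C1qa of other blood lineages. Other genes of the same marker lists were measured. Among 5 genes listed as selected against in the sort, 2 were measured. For other lineages it was 1 of 8 erythroid, 1 of 6 megakaryocyte, 1 of 6 B cell and 2 of 7 monocyte and macrophage genes. In set 5, 5 cells had the neutrophil granule gene Camp, at a mean over the set of 9867 TPM, S100a8 was detected in 5, S100a9 in 3 and Mmp8 in 1 of its 37 cells, and the neutrophil genes Ltf and Ngp were at 0. Their part in the results was not tested.

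The ribosome reads messenger RNA into protein. Its small subunit holds and decodes the message, and its large subunit joins the amino acids. Each ribosome carries about equal numbers of most of these proteins, and many of their messages start with a run of C and T, the 5' terminal oligopyrimidine (TOP) tract, through which growth signals set how often they are translated. Mutations in several of these genes cause inherited anemias. Mammalian genomes also hold many processed copies of these genes, made when a spliced message was copied back into DNA.

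Those copies bear on many of the values, so sequences are shown first. The coding stretch of Rps27, a small-subunit protein (chr3:90212522-90213651, minus strand, mm10 coordinates of GENCODE M21), was compared with Rps27rt, a retrocopy (chr9:114982366-114982739, minus strand), and with the paralog Rps27l (chr9:66946086-66949516, plus strand). The Rps27 and Rps27rt stretches were 255 bases long and differed at 0 bases. Rps27 and Rps27l differed at 61 of 255 bases, with 76.1% identical and no shared run longer than 11 bases. Capitals mark the bases at which Rps27 and Rps27l differ.
Rps27: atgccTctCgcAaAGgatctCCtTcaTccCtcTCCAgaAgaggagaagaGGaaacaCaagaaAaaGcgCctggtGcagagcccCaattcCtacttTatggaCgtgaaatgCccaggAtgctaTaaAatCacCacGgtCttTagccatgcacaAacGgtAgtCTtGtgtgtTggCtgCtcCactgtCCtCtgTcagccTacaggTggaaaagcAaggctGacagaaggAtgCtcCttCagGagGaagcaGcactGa
Rps27l: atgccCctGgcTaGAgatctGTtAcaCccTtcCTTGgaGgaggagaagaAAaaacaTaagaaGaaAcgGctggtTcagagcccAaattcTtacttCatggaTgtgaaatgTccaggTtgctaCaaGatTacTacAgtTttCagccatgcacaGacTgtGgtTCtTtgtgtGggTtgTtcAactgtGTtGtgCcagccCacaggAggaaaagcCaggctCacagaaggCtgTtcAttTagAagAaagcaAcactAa
The large-subunit gene Rpl37 and its retrocopy Rpl37rt stand between these cases, with 1 differing base in 294, again in capitals, and a shared run of 248 bases.
Rpl37: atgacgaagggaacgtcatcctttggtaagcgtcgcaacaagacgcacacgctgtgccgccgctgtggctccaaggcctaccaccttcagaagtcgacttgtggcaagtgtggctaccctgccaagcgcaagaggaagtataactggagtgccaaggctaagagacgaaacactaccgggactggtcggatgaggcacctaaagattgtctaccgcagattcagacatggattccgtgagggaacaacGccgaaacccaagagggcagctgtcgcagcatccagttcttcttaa
Rpl37rt: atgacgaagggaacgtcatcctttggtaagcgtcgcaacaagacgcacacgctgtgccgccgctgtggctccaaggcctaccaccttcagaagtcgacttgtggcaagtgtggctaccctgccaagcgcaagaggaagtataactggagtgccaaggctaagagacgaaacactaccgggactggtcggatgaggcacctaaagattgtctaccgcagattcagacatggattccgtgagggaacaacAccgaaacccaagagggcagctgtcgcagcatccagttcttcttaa
A read from within an identical run does not tell the genes apart. Rps12 and Rps12l1 were also identical, over 399 coding bases. The paralogs Rpl36a and Rpl36al differed at 39 of 321 bases, with 87.9% identical.

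The share of the pool in a cell's transcripts varied widely between cells. In the median cell of 4 months the 85 genes took 19.4% of TPM, with a range over cells of 0.666% to 29.4%. The median was 14.0% in set 4 (3.83% to 25.9%) and 14.2% in set 5 (1.26% to 23.6%). The ranges overlapped, but 26 of 29 cells of set 4 and 32 of 37 of set 5 lay below the 4-month median. In 5 cells the genes took less than 5% of TPM. Mitochondrial transcripts were over 50% of TPM in 4 of these and 45.1% in the other. Over genes neither mitochondrial, small non-coding nor pseudogenes, those of 14 months had shares of 16.6% to 21.2%. The 2 of 4 months had 2.27% and 10.1%, and small non-coding transcripts took 30.4% and 20.1% of their TPM.

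**Figure D1:**
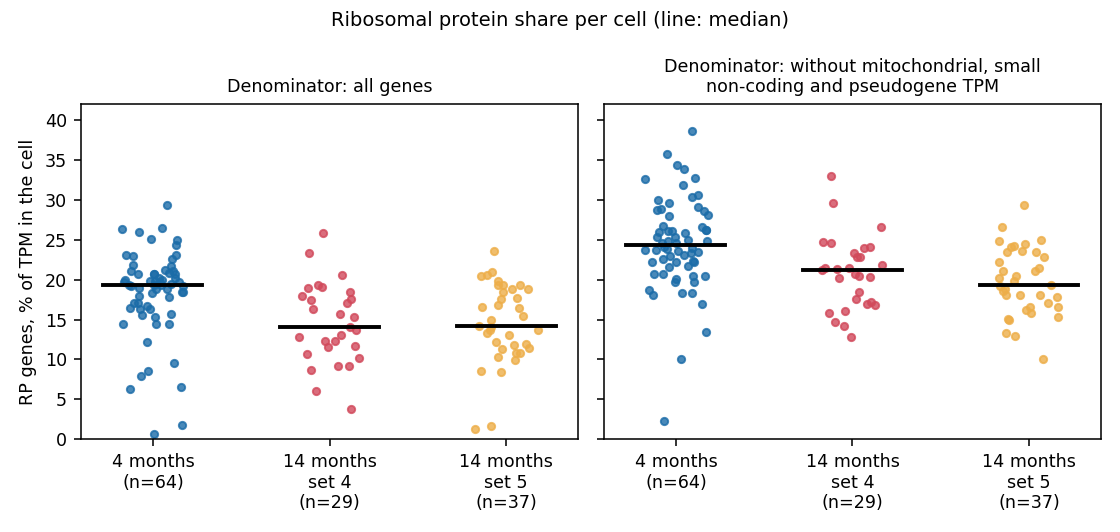
Share of TPM on the 85 ribosomal protein genes in each kept cell (points) by cell set. The left panel takes all genes. The right panel takes genes that are neither mitochondrial, small non-coding nor pseudogenes, with all members kept in. Lines are medians. The medians were 19.4%, 14.0% and 14.2% on the left and 24.3%, 21.2% and 19.4% on the right.

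Part of the TPM lies on mitochondrial and small non-coding transcripts, which differed between the sets. The median share of small non-coding RNA was 4.09% for the cells of 4 months, against 1.95% and 1.47% for sets 4 and 5. Over the remaining genes, with pseudogenes left out too, the ribosomal protein share was 24.3%, 21.2% and 19.4%, so the 4-month median stayed the highest and the gap to set 4 was smaller. Across the cells of a set, the share of all TPM ran against the mitochondrial share, with a Spearman correlation of -0.42 over 64 cells of 4 months, -0.67 over 29 of set 4 and -0.67 over 37 of set 5. Both shares come from the same total, which ties them. With the share taken over genes neither mitochondrial, small non-coding nor pseudogenes, the correlation was 0.04 at 4 months, -0.55 in set 4 and -0.42 in set 5. The share of all TPM correlated with the number of genes detected at 0.11, 0.07 and 0.21. Over genes neither mitochondrial, small non-coding nor pseudogenes, the share correlated with it at -0.01, -0.22 and 0.07.

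The balance between the subunits differed little between the sets. Small-subunit genes held a median of 46.5% of the pool at 4 months, 47.1% in set 4 and 47.0% in set 5. Ribosomal proteins of the mitochondrion, 77 genes named Mrpl or Mrps, took 0.567%, 0.566% and 0.587% of TPM.

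Nearly every member was present in nearly every cell. All 77 members that are neither retrocopies nor tissue-restricted or minor paralogs were measured. The median cell had 82 of the 85 members at 4 months, 82 in set 4 and 83 in set 5. A minority stood apart with fewer than 75 members: 7 of 64 cells of 4 months (23 to 67 members), 3 of 29 of set 4 (54 to 74) and 6 of 37 of set 5 (39 to 53). Their gene counts were low too, at 1066 to 2550, 1043 to 1665 and 1021 to 1361, while the other cells began at 2610, 1561 and 2269 genes. The limit of 75 was chosen after the values were seen.

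**Figure D2:**
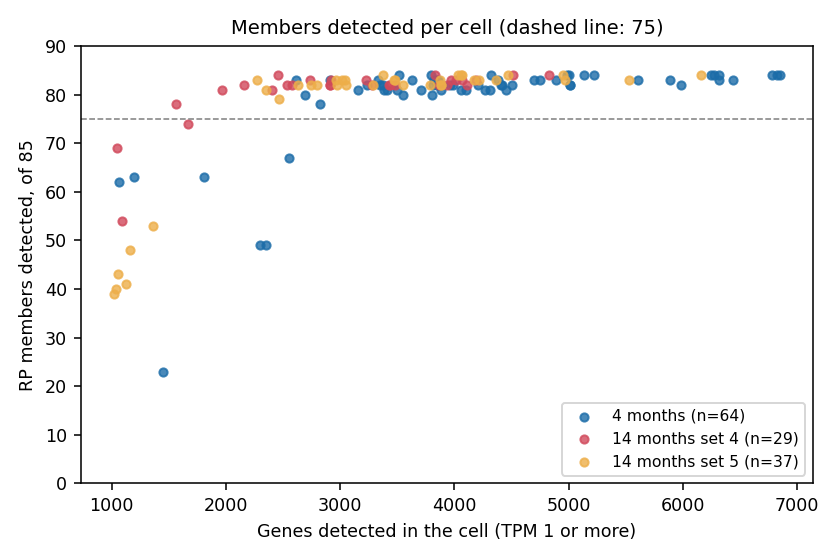
Ribosomal protein genes detected (of 85) against all genes detected in each kept cell, coloured by cell set; the dashed line marks 75 members. Cells under the line lie at or below 2550 genes, and the 6 of set 5 lie at or below 1361.

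Retrocopies and paralogs filled the low end of detection. Of the retrocopies, Rps3a2 was just inside the filter, at 20.8% of kept cells, followed by Rps27 itself at 23.1%. Just outside lay Rpl6l (7.69%), Rps4l (6.15%) and Rps3a3 (5.38%), then the paralogs Rpl3l (1.54%) and Rpl39l (0.769%), which are known from muscle and testis, and Rpl10l, at 0 of 130 cells. Rpl3l was found in 1 cell of 4 months and 1 of set 4, and both also had Rpl3.

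Levels followed a steady order that the sets shared. TPM is scaled by transcript length, so levels can be set side by side between genes. The 6 highest, by the mean of the 3 sets, were Rps18, Rps19, Rps27rt, Rpl32, Rpl41 and Rps14. Rps18, a small-subunit head protein, had a median of 7003 TPM at 4 months (0 to 13335), 5656 in set 4 (653 to 15717) and 5367 in set 5 (0 to 10161). Rps19, the gene most often mutated in Diamond-Blackfan anemia, had 7379 TPM at 4 months (9.08 to 15621), 4602 in set 4 (602 to 10507) and 5265 in set 5 (287 to 17428). The cells of the 3 sets overlapped over most of their range for both genes, and neighbours in this order did not differ beyond the spread between cells. Rpl41, which encodes the smallest ribosomal protein, had 5874, 4782 and 4529 TPM in the median cells. Across the 85 genes the mean levels of any pair of sets correlated at 0.96 to 0.97 (Spearman, across genes, which are not independent). The 10 highest genes held 29.8%, 31.0% and 31.8% of the pool.

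**Figure D3:**
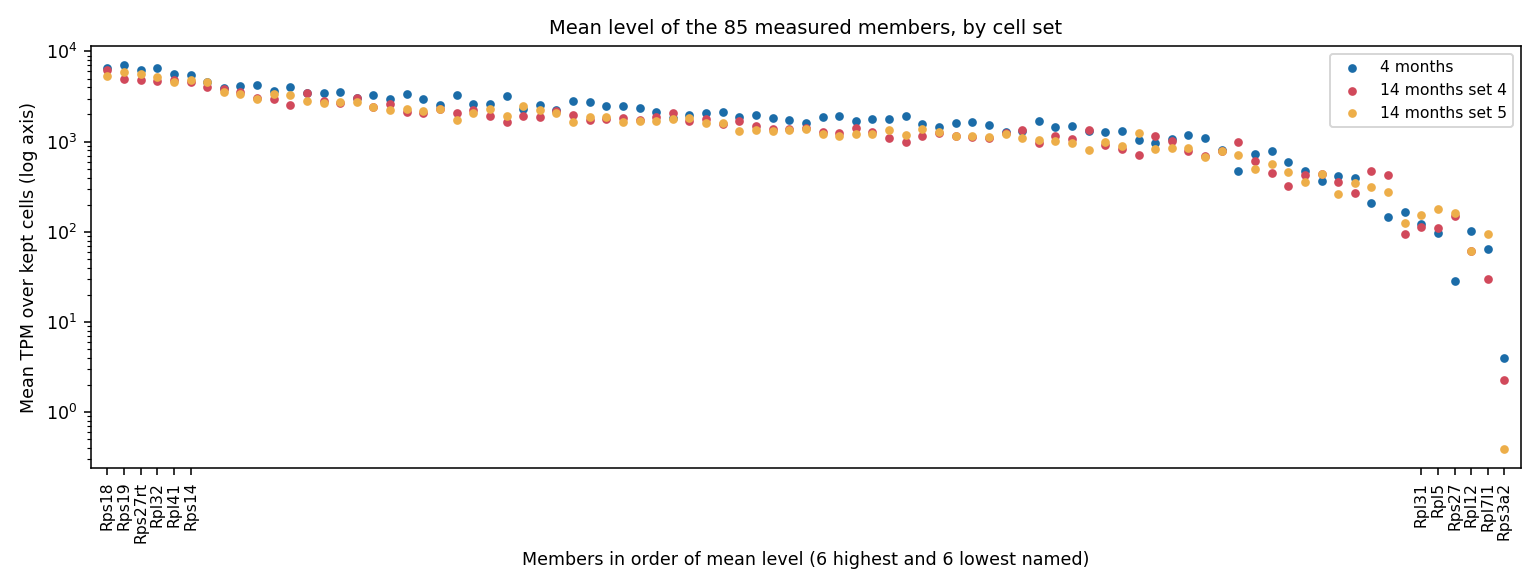
Mean TPM over kept cells (log axis) of the 85 measured genes, ordered by the mean of the 3 sets, which have a colour each; the 6 highest and 6 lowest are named on the axis. The order is shared by the sets; the lowest is the retrocopy Rps3a2, and Rps27 lies lower at 4 months than in either 14-month set.

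The low end of the order included genes that every ribosome needs. After Rps3a2 the lowest means were those of Rpl7l1, Rpl12, Rps27, Rpl5 and Rpl31. Rpl5, which with Rpl11 binds 5S ribosomal RNA and holds the p53 regulator Mdm2, had a median of 42.2 TPM at 4 months (0 to 553), 21.0 in set 4 (0 to 983) and 27.1 in set 5 (0 to 2805). Its partner Rpl11 had 1194, 1024 and 934 TPM, far above it in every set before copies are counted. Rpl12, a protein of the stalk base, had 76.6, 45.5 and 33.9 TPM.

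For several of these genes most of the TPM lay on copies of the same sequence. A search of the GENCODE transcripts found 449 copies that matched a member at 95% identity or more over at least 50% of the copy. Of these, 276 had a mean under 1 TPM and 32 had 100 TPM or more, of which 19 were identical to the member over the whole match. Adding each member's copies gave 81 families. In 54 the named gene kept at least 90% of the family's TPM, in 11 it kept 50% to 90%, and in 16 less than 50%. Rps27 kept 2.00% of its family, with a mean of 114 of 5684 TPM. Rpl5 kept 4.96%, with 128 of 2588 TPM, the rest being mostly on the copy Gm15500 (2562 TPM over the kept cells, identical over 1018 bases). With copies added, the Rpl5 family had means of 2977, 2302 and 2485 TPM in the 3 sets and the Rpl11 family 1560, 1234 and 1275, so the order of this pair turned. Rpl5 was joined by Rpl12 (75.0 of 1378 TPM), Rpl31 (129 of 1874), Rpl27a (129 of 1511) and Rps12 (283 of 2743), which also kept little of their families. For Rps29 the copy Gm14303 had a mean of 4598 TPM, and for Rps23 the copy Gm9701, at 96.97% identity, had 3068. Rpl15 kept 3.57% of 9291 TPM, but that family mean rests on a single cell of set 4 in which pseudogenes marked -ps took 57.1% of TPM.

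**Figure D4:**
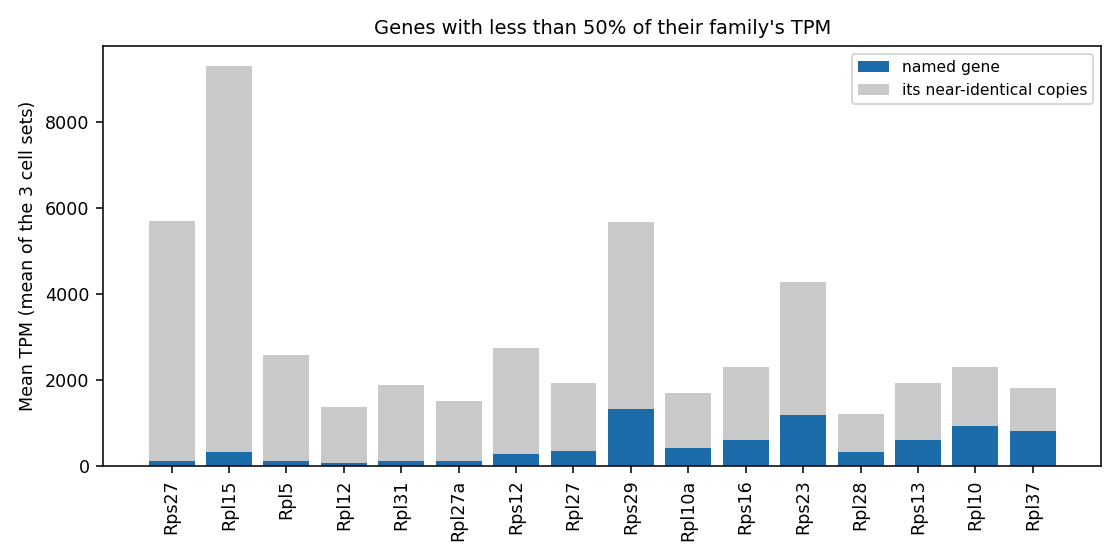
Mean TPM (mean of the 3 cell sets) on the named gene (blue) and on its near-identical copies (grey) for the 16 families in which the named gene held less than 50%. Rps27 held 114 of 5684 TPM and Rpl37, the last of the 16, held 823 of 1819.

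With copies added, fewer entries lay at low levels. Adding copies can only raise a level, and retrocopies among the members no longer stood alone, so this count could only fall. As single genes, 13 of the 85 lay under 500 TPM. As families only 3 of 81 did, Rpl7l1 at 63.2, Rps27l at 413 and Rpl36al at 458 TPM, all 3 of them paralogs. Copies outside the members took 3.98%, 3.34% and 3.54% of TPM in the median cells of 4 months, set 4 and set 5. Members and copies together took 23.4%, 19.2% and 18.6%.

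By mean TPM the parent gene led each paralog pair, except for Rps27, which lay below Rps27l in all 3 sets, and Rpl22 in set 4. Rpl22l1, the paralog of the large-subunit gene Rpl22, had a median of 436 TPM at 4 months (0 to 2190), 894 in set 4 (5.68 to 3402) and 623 in set 5 (0 to 3246). Rpl22 had 806, 682 and 709 TPM in the median cells. The share of Rpl22l1 in the pair's mean TPM was 37.0%, 55.5% and 47.5%. Cells with Rpl22l1 numbered 57 of 64, 29 of 29 and 32 of 37, and 57, 28 and 31 cells had both genes. Rpl22l1 cells of the 3 sets overlapped over most of the range. Rps27l, a p53 target, had a median of 268, 371 and 260 TPM and was detected in 50 of 64, 26 of 29 and 31 of 37 cells. Rpl36al made up 24.3%, 19.2% and 25.8% of its pair with Rpl36a. Rpl7l1, which acts in ribosome assembly, made up 2.70%, 1.53% and 3.69% of its pair with Rpl7, and was detected in 64.1% of 4-month cells (95% exact binomial interval 51.1 to 75.7), 27.6% of set 4 (12.7 to 47.2) and 56.8% of set 5 (39.5 to 72.9). Intervals cover counting error only.

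The proteins of the stalk, where elongation factors dock, did not share a pattern. Rplp0, its base, had a median of 2949 TPM at 4 months (3.63 to 6960), 2919 in set 4 (751 to 7476) and 2523 in set 5 (103 to 4904). Rplp1 had 3067 (0 to 8109), 1676 (0 to 5096) and 1711 (0 to 3805). Rplp2 had 2281, 1712 and 1680 TPM. The medians of Rplp1 and Rplp2 were thus highest at 4 months, while those of Rplp0 lay close together, and cells of all sets overlapped. Rpsa, a small-subunit protein also known as the laminin receptor, had 2539, 2467 and 2418 TPM.

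The other genes of inherited or acquired anemia lay within the range of the pool. Rps14, lost in the 5q- syndrome, had 5508 TPM in the median cell of 4 months, against 3643 and 5089 for sets 4 and 5. Rps26 had 2525, 1587 and 1668 TPM, and Rpl35a 1716, 1188 and 1432. In each of these the 4-month median was the highest of the 3. Relative to the median gene, in the sense given with the age comparison, the difference of 14 from 4 months was 0.54 on the log2 scale for Rps14, and -0.40 and -0.35 for Rps26 and Rpl35a. Over cells with 2000 or more genes it was 0.28, 0.21 and 0.22 for Rps14, Rps26 and Rpl35a, so the sign turned for Rps26 and Rpl35a.

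Some genes kept a steadier share of the pool than others. The spread of a gene's share over cells, as an SD on the log2 scale, had a range of 0.70 to 3.77 and a median of 1.98. Among the steadiest were Rps19 (0.70), Rplp0 (0.77) and Rps9 (0.86). The 5 most variable were Rps12 (3.77), Rps27 (3.42), Rps27l (3.25), Rpl7l1 (3.14) and Rpl36al (2.95), which are paralogs or genes with most of their family's TPM on copies. Low levels and incomplete detection go with a large spread on this scale.

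Members also varied together from cell to cell. Over the 44 members detected in at least 90% of the kept cells of each set, the median pairwise Spearman correlation was 0.33 at 4 months, 0.39 in set 4 and 0.39 in set 5. For 93 other genes that met the same detection limit, not matched to the members on level, it was 0.19, 0.12 and 0.14. With TPM rescaled to genes neither mitochondrial, small non-coding nor pseudogenes, the members' values were 0.27, 0.20 and 0.19, against 0.11, 0.04 and 0.03. All genes of a cell share its library and its total, which ties them.

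The comparison of 14 with 4 months asked how progenitor transcripts differ with age. On the log2(TPM+1) scale the mean over cells was lower at 14 months for 71 of 85 members, or 83.5%, and for 76.7% of all measured genes. Over all measured genes this difference had a median of -0.35, so differences are given relative to it. Relative to it the members had a median of -0.10, with 33 above and 52 below. Summed with their near-identical copies, the 81 families had a median of -0.001, with 40 above. A relative difference of 1 or more in size is referred to as called. Called higher were 2 of 85 members, against 3.34% of all measured genes, and called lower was 1, against 5.11%. Neither count stood above the background.

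The 2 members called higher were Rps12 (2.85) and Rps27 (2.19), the ones with the most variable share and identical retrocopies. Rps27 was detected in 8 of 64 cells of 4 months, 8 of 29 of set 4 and 14 of 37 of set 5, with highest values of 733, 2327 and 1181 TPM. Rps27rt was detected in 62, 28 and 36 cells, in every cell that had Rps27. The family of Rps27 with its copies had a relative difference of 0.17. Rps12 was detected in 31 of 64, 23 of 29 and 25 of 37 cells, with medians of 0.14, 416 and 223 TPM, and its family of 20 copies had a relative difference of 0.22. Summed over identical and near-identical sequences neither was called, and 0 families were called higher. The member called lower was Rplp1 (-1.06). The next lowest, Rps16 (-0.90), Rpl13a (-0.85), Rps15 (-0.80), Rpl8 (-0.79) and Rps2 (-0.76), did not reach the limit. Below the limit on the other side lay Rpl22l1 (0.97), Rps27l (0.80) and Rpl7 (0.72). Rpl13a had medians of 3152, 1570 and 1823 TPM, and Rpl8 had 1837, 838 and 1184, so for both the 4-month median was above those of both sets.

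The 2 sets of 14-month cells did not give the same picture. Both were compared with the same 4-month cells. In set 4 the members' median relative difference was 0.17, with 5 called higher (background 4.56%) and 1 lower (6.75%). In set 5 it was -0.27, with 2 called higher (6.62%) and 5 lower (6.66%). Over families with copies added, the medians against 4 months were 0.22 in set 4 and -0.05 in set 5. Set 5 against set 4 gave -0.44, with 1 called higher (6.87%) and 17 lower (4.45%). The 17 included Rpl22l1 (-1.68), Rpl23a (-1.41), Rpl36 (-1.36), Rpl37a (-1.28) and Rps26 (-1.15), which were picked after their values were seen. With near-identical copies added, 7 of 81 families were called lower (4.45% of all measured genes) and 1 higher (6.87%), with a median of -0.34. The families of Rpl22l1 (-1.68) and Rpl37a (-1.28) stayed called. Those of Rpl23a (-0.62), Rpl36 (-0.37) and Rps26 (-0.86) did not. Set 5 has the largest share of cells with few members, 16.2% against 10.3% in set 4 and 10.9% at 4 months. A stricter cut, to cells with 2000 or more genes, left 60, 24 and 31 cells. It removed every cell of set 5 and of set 4 with fewer than 75 members, further cells of set 4 and some of 4 months. With this cut the median of set 5 against set 4 was -0.03, with 1 member called lower (background 5.00%) and 2 higher (7.18%). Against 4 months the medians were then 0.21 in set 4 and 0.16 in set 5, and 0.14 with both pooled. Set 4 had 3 members called higher (background 5.98%) and 1 lower (6.86%), and set 5 had 2 higher (7.19%) and 0 lower (6.07%). The cause of these changes was not tested.

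**Figure D5:**
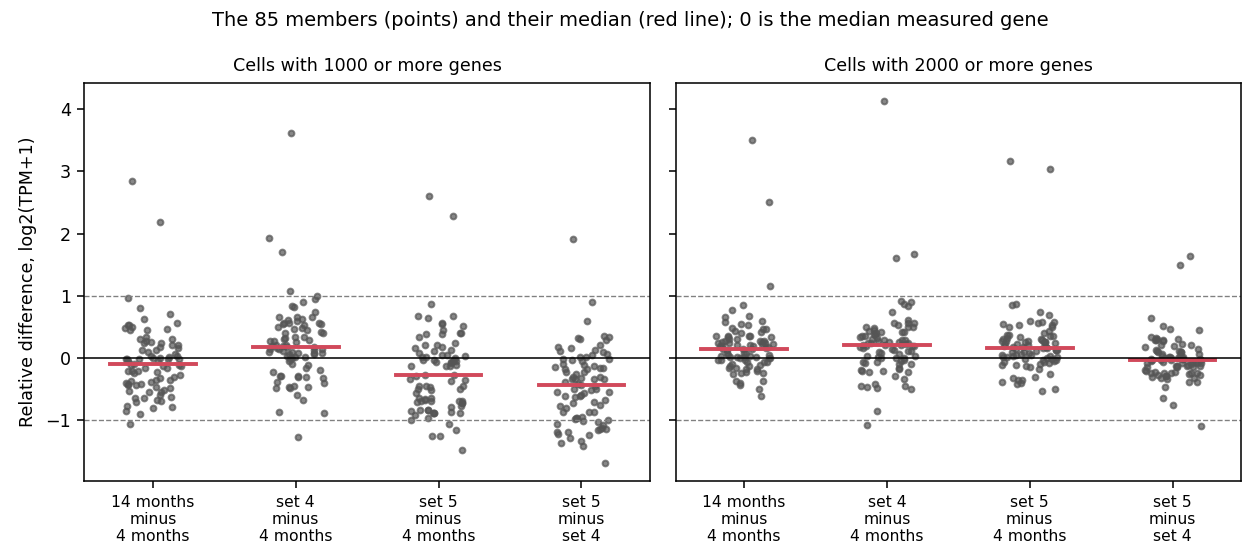
Relative difference on the log2(TPM+1) scale of each of the 85 members (points) and their median (red line) in 4 comparisons, for cells with 1000 or more genes (left) and with 2000 or more (right); 0 is the median measured gene and dashed lines mark 1 and -1. The medians of set 5 minus set 4 were -0.44 on the left and -0.03 on the right.

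With 2000 or more genes, Rplp1 stood at -0.40 and was no longer called, and 0 members were called lower at 14 months (background 4.64%). Rps12 (3.50) and Rps27 (2.50) stayed called higher (background 4.06%), joined by Rpl22l1 (1.17), whose relative difference was 1.61 in set 4 and 0.85 in set 5. Rpl22l1 was the only one of the 3 whose family had the same difference as the gene itself, 0.97 in both cases over all kept cells.

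Other parts of the translation machinery were read from lists of genes. Of 19 translation factors and other genes listed as partners of the TOP messages, 9 lay above and 10 below the median gene at 14 months, with a median of -0.07, 1 called higher (3.34% of all measured genes) and 4 lower (5.11%). A TOP-like tract, searched as described for the promoters, stood in 5 of the 13 of them with a start window. Eef2, which moves the ribosome along the message, had the lowest value (-2.10), with means of 350, 171 and 111 TPM for 4 months, set 4 and set 5. The initiation factor Eif4b stood at -1.59. The nucleolar chaperone Npm1 had the highest (1.45), with means of 1596, 3160 and 3267 TPM, and Hnrnpa1 stood at 0.99. Ribosomal proteins under other names included Fau (-0.95), which is made as a fusion with a ubiquitin-like protein, and Rack1 (0.38). Initiation factors had a median of 0.01 over 18 genes, from Eif4h (-1.21) and Eif3c (-0.80) to Eif3i (0.64) and Eif5 (0.67). Regulators of mTORC1 and TOP translation had 0.11 over 18 of 20 genes, with 0 called, from Tia1 (-0.56) and Rragc (-0.45) to Eif4ebp1 (0.69) and Cnbp (0.89). Factors of ribosome recycling and rescue had -0.03 over 10 of 11, from Ltn1 (-0.29) and Hbs1l (-0.28) to Abce1 (0.53) and Mcts1 (1.36). The 77 mitochondrial ribosomal proteins had -0.03, from Mrpl46 (-1.14) and Mrps14 (-1.01) to Mrpl36 (1.04) and Mrpl58 (1.12). Genes of the G2/M phase stood apart from all of these, with 14 of 15 above the median gene and a median of 0.70. Their part in the ribosomal protein values was not tested. The ribosomal protein share correlated with the mean G2/M level at -0.19, -0.29 and -0.20 across the cells of 4 months, set 4 and set 5. Its share of the genes neither mitochondrial, small non-coding nor pseudogenes correlated at -0.31, -0.34 and -0.34.

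The promoters of the members were searched for sequence features known from these genes. RefSeq start windows (GRCm38.p6, the same build) matched 63 of the 85 members. A tract that begins with C and runs for at least 5 bases of C or T, within 5 bases of the annotated start, stood in 30 of 63 members (47.6%) and in 21.2% of all 27025 genes with a window. Windows of 30 bases around the start are shown for Rps27 and its retrocopy, for a high gene with a long tract, for the paralog Rpl22l1 and for a high gene with none. Capitals mark the tract.
Rps27 (chr3:90213634-90213663, minus strand): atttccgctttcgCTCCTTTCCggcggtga
Rps27rt (chr9:114982725-114982754, minus strand): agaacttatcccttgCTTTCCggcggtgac
Rps18 (chr17:33955651-33955680, minus strand): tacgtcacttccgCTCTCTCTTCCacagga
Rpl22l1 (chr3:28805493-28805522, plus strand): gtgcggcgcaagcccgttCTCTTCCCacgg
Rpl41 (chr10:128549154-128549183, minus strand): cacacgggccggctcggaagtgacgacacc
Members with a tract had a median level of 1302 TPM (30 genes) and those without 1440 TPM (33 genes). Their median relative differences at 14 months were -0.08 and -0.24. Over the 300-base promoters and on both strands, the motif CCGGAAG, which ETS factors bind, stood in 39.7% of members and 9.93% of all genes, and AANATGGC, the YY1 motif, in 20.6% and 6.96%. TATAAA, the TATA box, stood in 11.1% and 15.7%. None of the 3 motifs contains another. The promoters of 69 mitochondrial ribosomal protein genes held CCGGAAG in 37.7% and AANATGGC in 30.4%, and those of 13 TOP partners held AANATGGC in 23.1%. A match is a description of these letters only.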

How the data were processed

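The deposited table holds TPM values, which scale transcript abundance by length and to a fixed total, made by the authors with Bowtie2 2.2.0 and RSEM 1.2.12 on mm10, per the submitters' processing notes; no source used here names their gene annotation. Every column has the same sum, so depth is unknown. Symbols were found for 37607 of 38924 gene IDs. No column was left unused. From the deposited TPM, detection (TPM 1 or more), shares, and mean log2 values per set (pseudocount 1) were computed. That scale understates the difference of low genes, and an SD over cells is no replicate error. Copies were found with BLAST+ 2.17.0 among GENCODE M21 transcripts. The scripts ran on scipy 1.17.1, pandas 2.3.3, numpy 2.4.6, matplotlib 3.10.9 and Python 3.11.15, and the relative differences were tested on simulated data.

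Cells counted as no replicates, so no p-value was computed. No doublet caller was run, since it needs counts. Members and lists were chosen with earlier results of these data known. Genes named are the 6 highest and 6 lowest levels and differences, the 5 most and 5 least variable shares, paralogs, anemia and stalk genes, members at the filter, and the 2 highest and 2 lowest of each list. Some genes that these rules take are not reported here.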

Additional observations from a re-analysis of the deposited data

Results flagged for a closer look

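Columns under 1000 genes were not used in the comparisons but held ribosomal protein transcripts. The members took a median of 2.61% of TPM in the 20 such columns of 4 months, 9.81% in the 16 of set 4 and 6.56% in the 2 of set 5. The limit that a count of 0 allows cannot be given, since the table holds no counts. Rps4l, a retrocopy under the filter on low values, reached 401.97 TPM in a kept cell of set 4 and was detected in 3 of 64, 1 of 29 and 4 of 37 kept cells.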

How the results depend on the processing

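The sign of the members' median relative difference at 14 months depended on the setting, while the ribosomal protein share was highest at 4 months under each alternative run for it; set 4 stood above set 5 when rescaled, with pseudogenes or copies added, and without columns that mitochondrial transcripts or 1 gene dominate (15.4% and 15.0%). The median of 14 minus 4 months, -0.10, was 0.14 with cells of 2000 or more genes, 0.21 with all columns, 0.0067 with TPM rescaled to genes neither mitochondrial, small non-coding nor pseudogenes, 0.083 with a pseudocount of 0.1, 0.017 with the filter at 30% and 0.17 with set 4 only. For set 4 minus 4 months, 0.17, it was -0.12 with all columns, -0.12 with a pseudocount of 10, -0.12 with no filter on low values, -0.48 with medians over cells and -0.061 after quantile normalization. For set 5 minus 4 months, -0.27, it was 0.16 with 2000 or more genes and 0.94 with all columns. For set 5 minus set 4, -0.44, it was 0.93 with all columns and 0.034 with medians over cells. The cause was not tested.

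The 2 members called higher at 14 months were 15 with all columns (4.13% of all measured genes under that setting), 5 with a pseudocount of 0.1 (10.6%) or with set 4 only (4.56%), 4 with cells matched on genes detected (8.86%), 1 with -ps pseudogenes added to their parents (3.34%) or with medians over cells (1.63%), and 0 with near-identical copies added (3.34%), an alternative chosen after seeing the data. Rps12 then stood at -0.23 with its -ps pseudogenes. The 1 member called lower was 0 with 2000 or more genes (4.64%), with all columns (3.28%), without columns that mitochondrial transcripts or 1 gene dominate (5.07%), and with the filter at 30% (6.59%). It was 6 with no filter (4.99%), 5 after quantile normalization (3.58%) and 5 with set 5 only (6.66%). The share of TPM moved to 21.2% in set 4 and 19.4% in set 5 when rescaled, and to 19.2% in set 4 with copies. The co-variation fell to 0.20 in set 4 and 0.19 in set 5 when rescaled. Pseudogene shares of 1.67% at 4 months and 1.52% in set 5 became 3.83% and 3.44% with predicted processed pseudogenes. Over the alternatives, Rplp1 ranged from -1.48 to -0.15 and Rpl22l1 from 0.25 to 1.94. No paired analysis was possible because each age is 1 sample and the columns carry no number that links them to a labelled cell. Depth is unknown, so no limit of detection can be given.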
